A study of Mus musculus with 2 samples.

Results

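The sialyltransferases are the Golgi enzymes that transfer sialic acid from its activated form, CMP-sialic acid, to the ends of sugar chains on glycoproteins and glycolipids. They were taken here as the probe sets whose single platform gene symbol starts with St3gal, St6gal (which includes St6galnac) or St8sia. The table held 13 such genes, measured by 17 probe sets, among 8721 genes with a single symbol. The mouse RefSeq gene table of assembly GRCm38.p6 lists 20 protein-coding genes of the family, so 7 of them (St3gal4, St6gal2, St6galnac3, St6galnac5, St8sia2, St8sia3 and St8sia6) were not analysed here. The members were selected by symbol, but the family was picked with the differences of St3gal6 and St6galnac4 between the arrays already known. All differences between the arrays are therefore given as descriptions.

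The source was colon epithelium of mice 7 weeks old, of the inbred strain C57BL/6. One group of cells had been incubated with MIF, read here as macrophage migration inhibitory factor, which is a cytokine and a ligand of the surface protein CD74. The other had been incubated with PBS, a salt buffer. Each group was measured on 1 Affymetrix array, so there was no spread between replicates and no test. For the dose, the duration, the number of animals and the isolation of the cells, the sources used here give no information.

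Each family adds sialic acid in its own position. The ST3Gal and ST6Gal enzymes cap galactose, and the ST8Sia enzymes extend an existing sialic acid. The ST6GalNAc enzymes act mainly on N-acetylgalactosamine, which is the first sugar of mucin-type O-glycans and also a part of gangliosides. In the colon sialic acid covers the secreted mucins and the cell surface, where it shields underlying sugars from bacterial enzymes and forms ligands of lectins such as the selectins and siglecs.

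The family showed no common direction in cells incubated with MIF. St3gal6 and St6gal1, which both cap galactose, had signals 1.70-fold and 1.61-fold higher on the MIF array, and St3gal3 was 1.37-fold higher. St6galnac6 was 1.47-fold lower on the MIF array, and one probe set of St6galnac4 was at least 3.08-fold lower. The remaining 8 genes, all 3 of the ST8Sia family among them, lay on both arrays under a signal floor of 232, the 40th percentile of the pooled signals. With their signals taken as they stood, 7 of the 11 probe sets of the family under the floor were higher and 4 lower on the MIF array, at signals of 18.1 to 170 on the MIF array and 17.0 to 171 on the PBS array. Over all 5841 probe sets under the floor on both arrays, the median log2 difference (MIF minus PBS) was 0.10. Of these, 13.8% were at least 1.5-fold higher on the MIF array and 5.10% at least 1.5-fold lower, so dim signals in general leaned towards MIF.

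**Figure D1:**
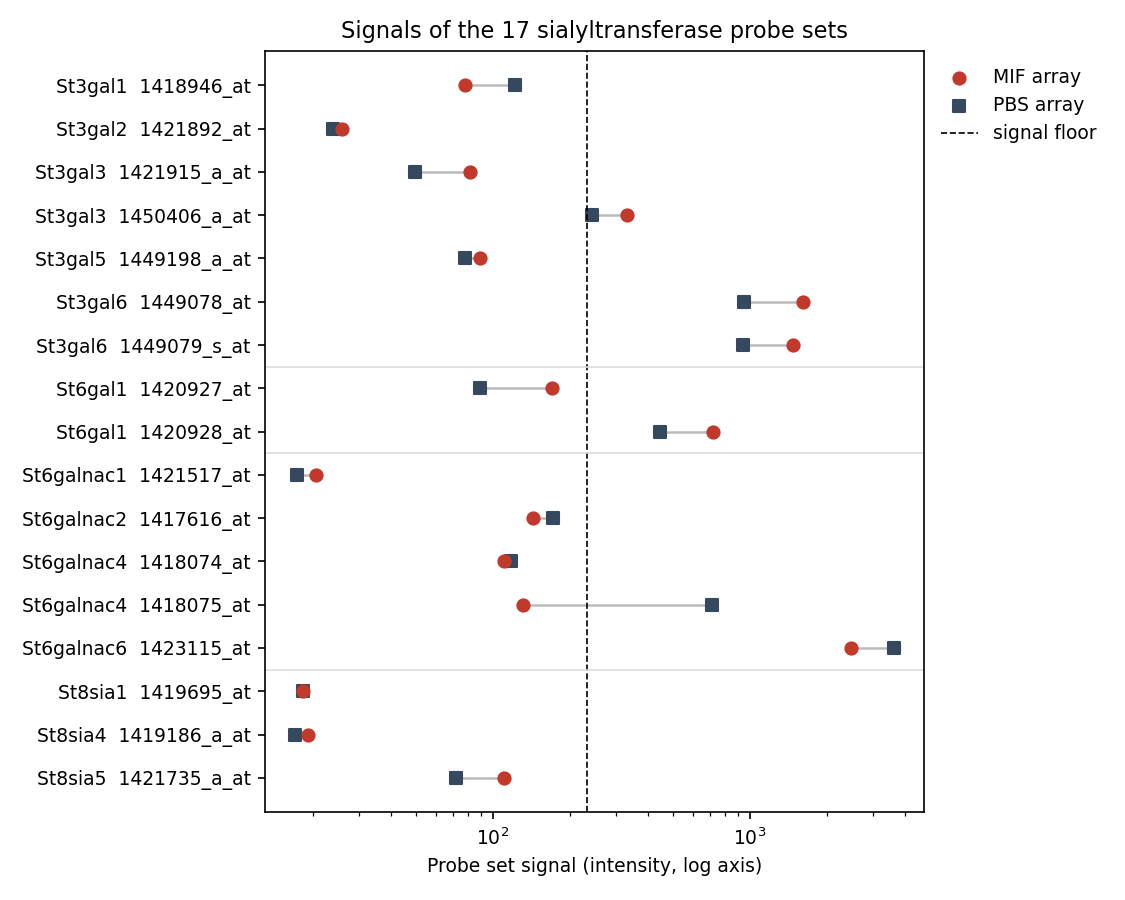
Signal of each sialyltransferase probe set (log axis) on the MIF array (red circles) and the PBS array (dark squares), grouped by family, with 1 array per group and the floor of 232 as a dashed line. Both probe sets of St3gal6, of St6gal1 and of St3gal3 lie further right on the MIF array, the dimmer ones of St6gal1 and St3gal3 under the floor. St6galnac6 lies further left, and 1418075_at of St6galnac4 crosses the floor.

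Of the 13 genes, 5 could be assessed, that is, had their brightest probe set above the floor on at least 1 array. The differences of 2 of these were at least 1.5-fold towards MIF and that of 1 was at least 1.5-fold towards PBS. Over all 5837 assessed genes the corresponding shares were 0.634% higher and 0.463% lower. At 2-fold, 0 members were higher and 1 was lower, against shares of 0.0685% and 0.0857% of all assessed genes. The median log2 difference (MIF minus PBS) of the 5 genes was 0.45, against -0.01 over all assessed genes, with 3 members above 0 and 2 below. This median rests on the middle gene of 5, St3gal3. It was 0.019 with a floor at the 20th percentile, 0.0066 at the 60th, 0.14 with averaged probe sets and 0.16 over all 13 genes without a floor.

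Separate probe sets of a gene hybridise with the same RNA and gave the measure of error within the arrays. For 1800 genes at least 2 probe sets could be measured on each array. Between the 2 brightest of a gene, the log2 difference (MIF minus PBS) varied with an SD of 0.13 per probe set. Across the 5545 genes above the floor on both arrays, log2 differences had an SD of 0.19. When the probe sets above the floor were put into 4 nearly equal groups by signal, 0.944% to 1.48% of each group differed by at least 1.5-fold. Under the floor on both arrays this share was 18.9%, with an SD of 0.62, so the dim members are described below by their signals. Their probe sets enter a difference, median or count only where no floor, a lower floor or averaged probe sets are named.

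The ST3Gal enzymes attach sialic acid to galactose. ST3GAL6 acts mainly on galactose bound to N-acetylglucosamine and contributes to sialyl Lewis x, a ligand of the selectins. Its gene had the largest positive difference of the family. Probe set 1449078_at had a signal of 1607 on the MIF array and 944 on the PBS array, a log2 difference of 0.77. The second probe set, 1449079_s_at, whose suffix marks probes shared by several transcripts, had 1466 on the MIF array and 939 on the PBS array, a log2 difference of 0.64 or 1.56-fold. Both were therefore higher on the MIF array, and they differed from each other by less than the difference between the arrays. Among the 5545 genes above the floor on both arrays, the difference of St3gal6 held rank 9 from the highest.

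ST3GAL3 sialylates the galactose of N-glycans and glycolipids. Its brighter probe set, 1450406_a_at, had 333 on the MIF array and 243 on the PBS array, the PBS signal lying just above the floor. The log2 difference of 0.45 held rank 93 from the highest. The dimmer probe set, 1421915_a_at, had 81.5 on the MIF array and 49.7 on the PBS array, both under the floor, and was also the higher on the MIF array.

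The other members of this family in the table were dim. St3gal1, whose enzyme caps core 1 O-glycans of mucins, had 77.5 on the MIF array and 122 on the PBS array. St3gal2, whose enzyme acts on core 1 O-glycans and on gangliosides, had 25.8 on the MIF array and 23.8 on the PBS array. St3gal5, which encodes the synthase of the ganglioside GM3, had 89.0 on the MIF array and 77.6 on the PBS array. As deposited, St3gal1 thus had the lower signal on the MIF array and the other ST3Gal genes the higher, at levels where no difference was assessed for these 3.

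ST6GAL1 adds sialic acid to the galactose ends of N-glycans in another linkage and forms the ligand of the B cell lectin CD22. Probe set 1420928_at had 720 on the MIF array and 446 on the PBS array, a log2 difference of 0.69, which held rank 15 from the highest. The second probe set, 1420927_at, had 170 on the MIF array and 89.0 on the PBS array, so it lay under the floor on both but was again higher on the MIF array. A floor at the 60th percentile lies above the PBS value of the brighter probe set, and there the log2 difference of St6gal1 was a bound of 0.53, under the 1.5-fold threshold.

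Signals of the ST6GalNAc genes lay lower on the MIF array wherever they passed the floor. ST6GALNAC6 makes disialylated gangliosides and, in human colon, disialyl Lewis a. St6galnac6, on its single probe set 1423115_at, had 2466 on the MIF array and 3619 on the PBS array. Its log2 difference of -0.55 held rank 25 from the lowest of the 5545 genes and fell just short of 1.5-fold. After centring each array on its median it was -0.59, past that threshold.

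ST6GALNAC4 adds a second sialic acid to sialylated core 1 O-glycans, which gives disialyl-T. Its 2 probe sets disagreed. Probe set 1418075_at had 131 on the MIF array, under the floor, and 713 on the PBS array, which gave the bound of at least 3.08-fold lower. Under a 60th percentile floor the log2 bound was -0.52, short of 1.5-fold. Probe set 1418074_at had 110 on the MIF array and 117 on the PBS array, both under the floor. The lower signal on the MIF array thus rests on 1 probe set of 1 array pair, and on the mean of both probe sets the log2 bound was -0.32. In the RefSeq table St6galnac6 is the next protein-coding gene after St6galnac4 on chromosome 2, on the same strand, so the 2 assessed members with lower signals on the MIF array are neighbours.

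St6galnac1 and St6galnac2, whose enzymes sialylate the first sugar of mucin O-glycans, were under the floor. St6galnac1, the gene of the sialyl-Tn synthase, had 20.5 on the MIF array and 17.3 on the PBS array. St6galnac2 had 143 on the MIF array and 171 on the PBS array. No difference was assessed for either gene at these signals.

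The ST8Sia genes, whose enzymes add sialic acid to sialic acid, all lay under the floor. St8sia1, the gene of the synthase of ganglioside GD3, had 18.1 on the MIF array and 18.2 on the PBS array. St8sia4, which encodes a polysialyltransferase, had 19.0 on the MIF array and 17.0 on the PBS array. St8sia5, whose enzyme acts on gangliosides, had 111 on the MIF array and 71.8 on the PBS array, both under the floor. None of these 3 genes could be assessed.

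**Figure D2:**
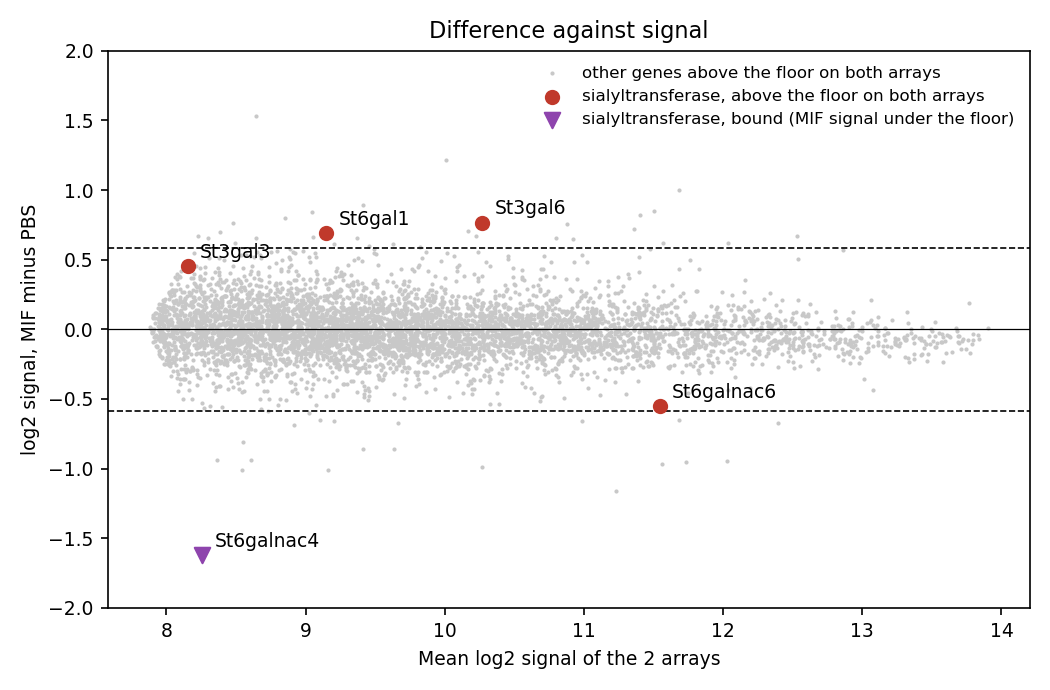
Log2 difference (MIF minus PBS) against the mean log2 signal of both arrays for each gene above the floor on both arrays (grey), with the 5 assessed sialyltransferases marked and 1.5-fold dashed. St3gal6 and St6gal1 lie above the upper line, St3gal3 at 0.45 and St6galnac6 at -0.55 within the lines, and the bound of St6galnac4 at -1.62, placed at the mean of its deposited signals.

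Promoter windows from RefSeq (GRCm38.p6), each 250 bases before to 50 after an annotated start, were available for 8 of the 13 genes, 11 windows in all. The 11 windows were searched on both strands for the GC box (GGGCGG), the AP-1 site (TGANTCA), the CRE (TGACGTCA) and the TATA box (TATAAA). Also searched were the GAS element bound by STAT factors (TTCNNNGAA) and the NF-kB site (GGGRNNYYCC). In these letters R stands for A or G, Y for C or T and N for any base. Shown are the windows of the 3 genes past 1.5-fold (St3gal6, St6gal1 and St6galnac4) that held a match, 5′ to 3′ along the gene, with matches in capitals:
St3gal6, chr16:58523377-58523676, minus strand: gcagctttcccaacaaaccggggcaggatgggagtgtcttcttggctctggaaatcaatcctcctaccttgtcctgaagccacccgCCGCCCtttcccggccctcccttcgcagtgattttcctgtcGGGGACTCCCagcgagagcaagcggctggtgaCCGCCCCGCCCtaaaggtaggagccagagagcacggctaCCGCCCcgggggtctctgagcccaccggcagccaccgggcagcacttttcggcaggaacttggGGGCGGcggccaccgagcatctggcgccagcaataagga
St6gal1, chr16:23224490-23224789, plus strand: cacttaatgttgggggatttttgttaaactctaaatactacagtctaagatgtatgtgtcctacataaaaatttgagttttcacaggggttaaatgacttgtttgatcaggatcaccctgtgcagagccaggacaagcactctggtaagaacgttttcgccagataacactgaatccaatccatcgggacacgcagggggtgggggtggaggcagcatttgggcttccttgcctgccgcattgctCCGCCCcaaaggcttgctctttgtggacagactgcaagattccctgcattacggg
St6gal1, chr16:23290220-23290519, plus strand: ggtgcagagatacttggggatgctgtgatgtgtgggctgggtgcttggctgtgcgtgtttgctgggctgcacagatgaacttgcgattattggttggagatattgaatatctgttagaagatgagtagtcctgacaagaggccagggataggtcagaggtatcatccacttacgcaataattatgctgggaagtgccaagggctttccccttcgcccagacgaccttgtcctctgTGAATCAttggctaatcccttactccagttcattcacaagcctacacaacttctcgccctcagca
St6galnac4, chr2:32586828-32587127, plus strand: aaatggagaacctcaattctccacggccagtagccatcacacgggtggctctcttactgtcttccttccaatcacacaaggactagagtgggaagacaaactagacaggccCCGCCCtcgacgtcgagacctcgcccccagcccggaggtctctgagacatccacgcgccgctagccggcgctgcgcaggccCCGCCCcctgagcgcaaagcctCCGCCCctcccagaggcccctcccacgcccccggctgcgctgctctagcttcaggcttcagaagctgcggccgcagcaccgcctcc

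The St3gal6 window held 5 GC boxes, a pair of which share 1 base, and 1 NF-kB match at bases 128 to 137, GGGGACTCCC. The first St6gal1 window held 1 GC box and the second an AP-1 match, TGAATCA, at bases 236 to 242. The St6galnac4 window held 3 GC boxes. A further window of St3gal6 and one of St6gal1 held none of these letters. Over all 32851 windows of the table, 35.7% held a GC box, 8.46% an NF-kB match and 7.81% an AP-1 match. The CRE, GAS and TATA letters, found in none of the 11 family windows searched, were in 1.79%, 8.30% and 13.6% of all windows. The St3gal6 and St6galnac4 windows shown were rich in G and C, at 64.7% and 65.7%, against 48.0% and 49.7% in those of St6gal1 and a median of 52.7% over all windows. GC boxes were therefore present in windows of genes with higher and of a gene with lower signal on the MIF array. In all, 7 of the 11 family windows searched held one. A match describes the letters only, and factor binding was not measured.

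Genes that make and carry the sialic acid donor had log2 differences between -0.04 and 0.09. The table held 6 of the 9 listed genes and 5 were assessed, with a median of 0.05, against -0.01 over all assessed genes. None was past 1.5-fold, a size that 0.634% (higher) and 0.463% (lower) of all assessed genes reached. Gne, the rate-limiting enzyme of sialic acid synthesis, had 2847 on the MIF array and 2759 on the PBS array. The log2 differences of the synthase gene Nans and the phosphatase gene Nanp were 0.09 and 0.08. Those of Cmas, which activates sialic acid to CMP-sialic acid, and Slc35a1, the Golgi transporter of the donor, were -0.04 and -0.03. All 5 lay within 0.13 of 0, the SD per probe set given above, which holds no spread between replicate arrays. Cmah, which makes the glycolyl form of sialic acid, was under the floor on both arrays.

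Of the 7 listed genes of sialic acid removal and modification, the table held 4, all above the floor. Their log2 differences had a median of 0.17, which was 0.35 with the probe sets of each gene averaged. They ran from -0.19 to 0.26, within 1.5-fold like all but 0.634% (higher) and 0.463% (lower) of the assessed genes. Siae, a sialic acid O-acetylesterase, differed by 0.26 from a PBS signal of 237 near the floor, and Casd1, which O-acetylates sialic acid, by 0.20. The lysosomal sialidase gene Neu1 differed by 0.14 and Ctsa, which encodes the protein that protects this sialidase, by -0.19.

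Further listed glycosyltransferases build the acceptors of sialylation or compete for them. Of 20 listed genes, 16 were in the table and 12 assessed, 8 higher and 4 lower on the MIF array, with a median log2 difference of 0.29. Over all assessed genes 2728 were higher and 3109 lower, with a median of -0.01. On the higher side 1 gene of the list was past 1.5-fold, where 0.634% of all assessed genes were. This was B3galt5, which makes the type of chain that carries Lewis a antigens, with 730 on the MIF array and 477 on the PBS array, 1.53-fold higher. Gcnt3, the mucin core branching enzyme, had 488 on the MIF array and 332 on the PBS array, a log2 difference of 0.56. C1galt1, which makes core 1 O-glycans, differed by 0.45, and its chaperone C1galt1c1 by 0.26. The other higher genes were B4galt4 (0.36), the fucosyltransferases Fut2 (0.32) and Fut8 (0.29), and B4galt6 (0.29). On the lower side were B4galnt1 of ganglioside synthesis (-0.28), B4galnt2 (-0.17), which makes the Sda antigen and acts on chains that already carry sialic acid, Ugcg (-0.13) and B4galt1 (-0.06). The proteins that bind sialic acid could not be assessed. Of 12 listed genes, Cd22, Sele and Siglecf were in the table, all under the floor on both arrays.

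**Figure D3:**
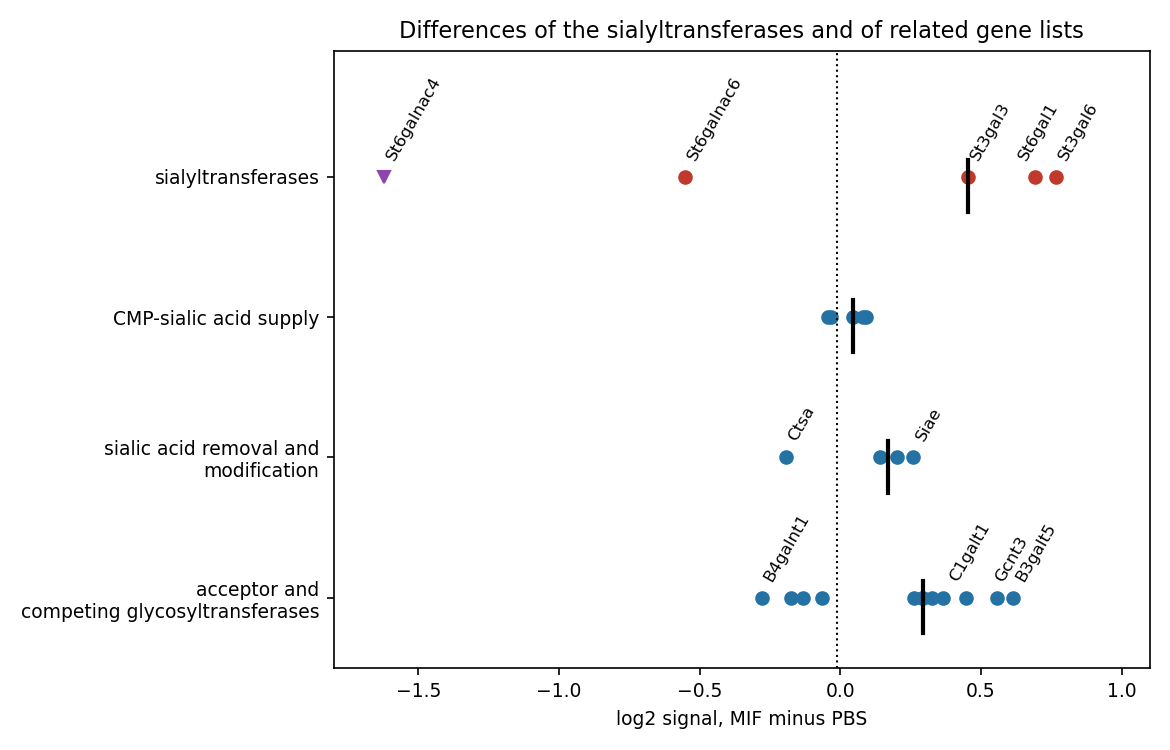
Log2 difference (MIF minus PBS) of each assessed gene (points) in 4 lists, with the list's median as a bar, the median of all assessed genes (-0.01) dotted, and the bound of St6galnac4 as a triangle. The sialyltransferases run from -1.62 to 0.77, whereas the 5 donor supply genes lie between -0.04 and 0.09.

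Markers of epithelium were present at high signal on both arrays, and some markers of other cells differed between them. All 10 listed epithelial markers, such as Epcam and Krt8, lay above the floor, with a summed signal of 84196 on the MIF array and 88849 on the PBS array. Of the 8 goblet cell markers, 7 were in the table, all above the floor, and summed to 43610 on the MIF array and 40379 on the PBS array. Of these 7, 6 were higher on the MIF array, with Creb3l1 at 0.55, Clca1 at 0.51 and Spdef at 0.44 on the log2 scale, while the differences of Zg16, Fcgbp, Tff3 and Agr2 lay between -0.01 and 0.08. Of the 6 absorptive colonocyte markers in the table, all were above the floor, and they summed to 23757 on the MIF array and 23635 on the PBS array, with log2 differences from -0.48 (Ms4a10) and -0.43 (Slc51a) to 0.21 (Car4). All 8 fibroblast markers were in the table, with signals of 43.0 to 678 on the MIF array and 3.93 to 235 on the PBS array. They summed to 1946 on the MIF array and 781 on the PBS array, and each had the higher signal on the MIF array. Of the 8, 5 were under the floor on both arrays. Dcn had a log2 difference of 1.53, the largest of all assessed genes, and Col3a1 and Vim had bounds of 1.26 and 0.13. The 5 T and NK cell markers in the table, of 10 listed, summed to 779 on the MIF array and 1517 on the PBS array. Gzma and Gzmb were above the floor on both arrays, with log2 differences of -1.01 and -0.94, and Cd3g, Cd8a and Nkg7 under it on both. The 6 of 8 myeloid markers in the table summed to 1786 on the MIF array and 1721 on the PBS array. Most of this was Cd14, at 1307 on the MIF array and 1318 on the PBS array. Lyz2 passed the floor on the MIF array only, and Adgre1, Cd68, Csf1r and Itgam were under it on both. The B and plasma cell markers Ighm and Jchain, the 2 of 8 in the table, were under the floor on both arrays, with a summed signal of 42.0 on the MIF array and 60.6 on the PBS array. The part of these cell types in the signals of the sialyltransferases and of the related lists was not tested. In whole-preparation RNA, fewer cells of a type and less RNA per cell cannot be told apart.

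**Figure D4:**
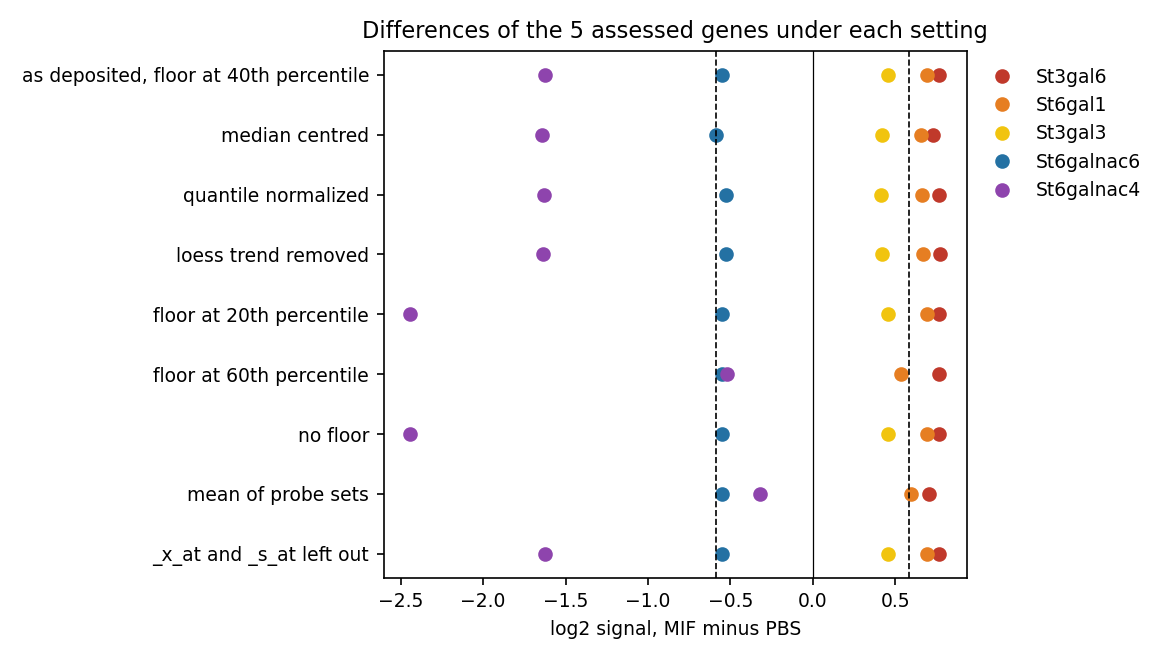
Log2 difference (MIF minus PBS) of the 5 assessed sialyltransferases under each way of processing the signals, with 1.5-fold dashed. St3gal6 stays between 0.70 and 0.77 and St6galnac6 between -0.59 and -0.52. St6galnac4 moves between -2.44 and -0.32, its values other than -2.44 being bounds set by the floor. St3gal3 has no value where its signals are under the floor.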

How the data were processed

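One array was made of cells incubated with MIF and 1 of cells incubated with PBS. Per the labels' protocols, RNA was isolated with Trizol and made into biotinylated cRNA by the Affymetrix protocol. The table deposited by the authors gives 1 signal intensity per probe set, which its values show to be linear and not logarithmic. How probes were summarised, corrected for background and scaled, and how the 15340 probe sets were chosen, is not stated in the sources used here. The column medians, 346 for MIF and 337 for PBS, differed by 0.04 on the log2 scale, so the columns were used as deposited.

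The 61 array controls were left out. Names came from GEO's platform annotation, which gave 1 symbol to 14049 probe sets, several to 490 and none to 740. Of the first, 14047 matched the GRCm38.p6 gene table by Entrez ID, with no symbol changed. Signals under the floor, the 40th percentile of all signals (232), were raised to it. The brightest probe set stood for its gene. With 1 array under the floor the difference is a bound, and with both it was not assessed. The number of arrays limits the precision.

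The members, the lists of related genes and markers, and the 1.5-fold threshold were chosen with earlier results of these data known, and the promoter motifs after the values were seen. Every member was named, with every assessed gene of the related lists. Neither a p-value nor a test was possible. The alternatives changed the scaling (median centring, quantile normalization or a loess trend with intensity removed, span 0.3), the floor (20th percentile, 60th percentile or none), the probe sets (their mean per gene, or none ending in _x_at or _s_at) and the threshold (2-fold). The steps were tested on simulated data. Software was Python 3.11.15, statsmodels 0.14.6, pandas 2.3.3, numpy 2.4.6 and, for figures, matplotlib 3.10.9.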

Additional observations from a re-analysis of the deposited data

How the results depend on the processing

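The directions of St3gal6, St6gal1, St3gal3, St6galnac6 and St6galnac4 were kept under each scaling, floor and probe set choice that gave them a value. St3gal3 was not assessed with the floor at the 60th percentile or with averaged probe sets. The sizes for St3gal6, St3gal3 and St6galnac6 moved by less than 0.13, the SD per probe set given above. St6gal1 was a bound of 0.53 with the floor at the 60th percentile. St6galnac4 was -2.44 with the floor at the 20th percentile or none. Its values of -0.52 at the 60th and -0.32 with averaged probe sets were bounds set by the floor. The median of the assessed sialyltransferases was 0.019 with the floor at the 20th percentile, 0.0066 at the 60th, 0.16 with none and 0.14 with averaged probe sets. A floor at the 20th percentile or none brought in further genes (8 and 13 assessed), whereas a 60th percentile floor or averaging left 4, without St3gal3, and changed the values of St6gal1 and St6galnac4. The count of sialyltransferase genes higher was 1 with the floor at the 60th percentile, 0 at 2-fold, and 3 without a floor. Over all assessed genes these counts were 19 of 4010, 4 of 5837 and 455 of 8721. The count of sialyltransferase genes lower was 2 with median centring or no floor, against 32 of 5833 and 198 of 8721 assessed genes. It was 0 with averaged probe sets or a 60th percentile floor, where St6galnac4 was a bound, against 21 of 5271 and 12 of 4010. The median of the genes of sialic acid removal and modification was 0.35 with averaged probe sets. The medians of the donor supply list and the acceptor list moved by less than 0.13 under each alternative. With 1 array per group, no alternative stands in for a replicate.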
